A study of Mus musculus with 12 samples.

Results

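Transcripts of 9 genes of central nervous system myelin were followed by RNA sequencing across normal mouse cortex and 3 kinds of YAP1 fusion brain tumour. The genes are Mbp, Mog, Mag, Mobp, Cnp, Cldn11, Opalin, Ugt8a and Mal. They were taken by name from the 24421 gene symbols counted in every library. The rule itself uses no measured value, but the 9 were chosen with earlier results of these data known. All 9 were among the 16364 genes kept by a filter on low counts. The series holds 12 libraries in 4 groups of 3. The naive group is cortex of mice that received no injection. The other groups are whole tumours that grew after RCAS viruses were injected into the brain, and the virus carried YAP1-TFE3, YAP1-MAMLD1-dR3R1 or YAP1-FAM118B. RCAS is an avian retroviral vector that enters only cells made to carry its receptor. The labels name no mouse strain, age, receptor line or promoter for that receptor, and they give no sign that the replicates were separate animals, so the p-values below measure the spread between these libraries, which may be technical in part. A group injected with virus that carries no fusion is not analysed here.

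Myelin is the membrane sheath that mature oligodendrocytes wrap around axons. Its proteins are made late in the lineage, when dividing precursors stop cycling and the transcription factors SOX10 and MYRF switch on the myelin programme. In cortex most of this RNA lies in mature oligodendrocytes, while YAP1 is a transcriptional coactivator that acts at DNA mainly through TEAD factors.

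Total counts lay between 19850220 and 24760814 per library, so that 3 counts were worth 0.117 to 0.145 CPM, the unit used below for a gene relative to its library as scaled by TMM. The tissue label reads brain tumour for every library, naive included, and the extraction text describes cultured cells, although the design states frozen tumours. In the naive libraries 12 neuron markers summed to 8445 to 11435 CPM and 8 fibroblast and meninges markers to 86.6 to 174 CPM. A pair of libraries stood apart in holding counts of Xist together with Y-linked genes. Naive replicate 2 had 25.6 CPM of Xist and 109 CPM over 4 Y-linked genes, and YAP1-FAM118B replicate 2 had 162 and 71.1 CPM. In the other 10 libraries either Xist was at most 0.434 CPM or the Y-linked sum was at most 0.132 CPM. Xist was at 305 CPM in naive replicate 3, 493 CPM in YAP1-MAMLD1-dR3R1 replicate 1 and 320 CPM in YAP1-FAM118B replicate 1. All YAP1-TFE3 libraries held Y-linked counts, at 172 to 228 CPM, with little Xist, while each other group included a library with Xist. The part of sex in the differences between groups was not tested. Results that change without the pair holding both kinds of counts are given beside the result.

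The sequence upstream of the start site is shown for 3 members on which the results below turn. Mal had the largest fold change in YAP1-TFE3 tumours, Opalin the largest in the other fusions, and Cnp the smallest in YAP1-TFE3 and YAP1-MAMLD1-dR3R1 tumours. The windows come from RefSeq, assembly GRCm38.p6, which matched 8 of the 9 members. The 250 bases before the start were searched, and bases that lie inside the gene in GENCODE were not printed. Opalin is chr19:41077114-41077363 on the minus strand, Mal is chr2:127656696-127656945 on the minus strand, and Cnp is chr11:100574689-100574903 on the plus strand. They read 5′ to 3′ along the gene, with motif matches in capitals.
Opalin: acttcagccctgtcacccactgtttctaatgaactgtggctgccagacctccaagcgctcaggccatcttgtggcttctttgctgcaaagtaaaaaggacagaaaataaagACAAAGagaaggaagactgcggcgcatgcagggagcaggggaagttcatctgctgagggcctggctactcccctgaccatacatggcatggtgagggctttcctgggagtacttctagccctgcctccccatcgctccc
Mal: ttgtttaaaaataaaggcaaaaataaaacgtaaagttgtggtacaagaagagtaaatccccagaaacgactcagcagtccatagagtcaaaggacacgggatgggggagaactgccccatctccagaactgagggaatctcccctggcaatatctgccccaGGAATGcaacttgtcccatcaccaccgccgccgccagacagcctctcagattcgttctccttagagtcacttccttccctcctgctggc
Cnp: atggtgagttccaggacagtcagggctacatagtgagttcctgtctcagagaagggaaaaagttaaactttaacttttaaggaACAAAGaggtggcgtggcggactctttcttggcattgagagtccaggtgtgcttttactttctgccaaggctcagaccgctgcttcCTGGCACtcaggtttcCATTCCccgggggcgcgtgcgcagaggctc
The search took 4 motifs on both strands, and no match overlaps another in the printed windows. ACAAAG, a form bound by SOX and TCF factors, was found in 5 of the 10 windows of these 8 members, upstream of Cnp, Mag, Mobp and Opalin, and in 16.5% of all 32851 windows of the same length. GGAATG, the core bound by TEAD factors, was found in 3 of the 10, upstream of Cnp, Mag and Mal, against 12.6% of all windows. CTGGCAC, a MYRF core, was found in 3 of the 10, upstream of Cnp and Mag, against 4.19% of all windows. Windows of neighbouring Mag start sites overlap, and ACAAAG and CTGGCAC each counted the same Mag site in both of them. AACAAT, another SOX core, was in none of the 10 and in 9.42% of all windows. In the Cnp window the capitals mark the SOX and TCF form first, then the MYRF core, and last the TEAD core read on the other strand. These matches are letters only, and no binding was measured. The members' windows ranged in GC content from 40.8% in Mobp to 76.8% in Ugt8a, around a median of 52.4% over all windows.

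The members together were far lower in tumours than in naive cortex. Their summed counts made up 0.531% ± 0.193 (SD, n = 3) of the naive libraries, with a range of 0.366 to 0.743%. The share was 0.198% ± 0.0918 in YAP1-MAMLD1-dR3R1 tumours and 0.229% ± 0.108 in YAP1-FAM118B tumours. In YAP1-TFE3 tumours it was 0.0526% ± 0.0117, and its highest library, at 0.0642%, lay below the lowest library of every other group. YAP1-MAMLD1-dR3R1 ran from 0.133 to 0.303% and YAP1-FAM118B from 0.129 to 0.344%, so these overlapped each other and lay below naive. In bulk tissue, fewer oligodendrocytes in the piece and less myelin RNA per oligodendrocyte cannot be told apart.

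**Figure D1:**
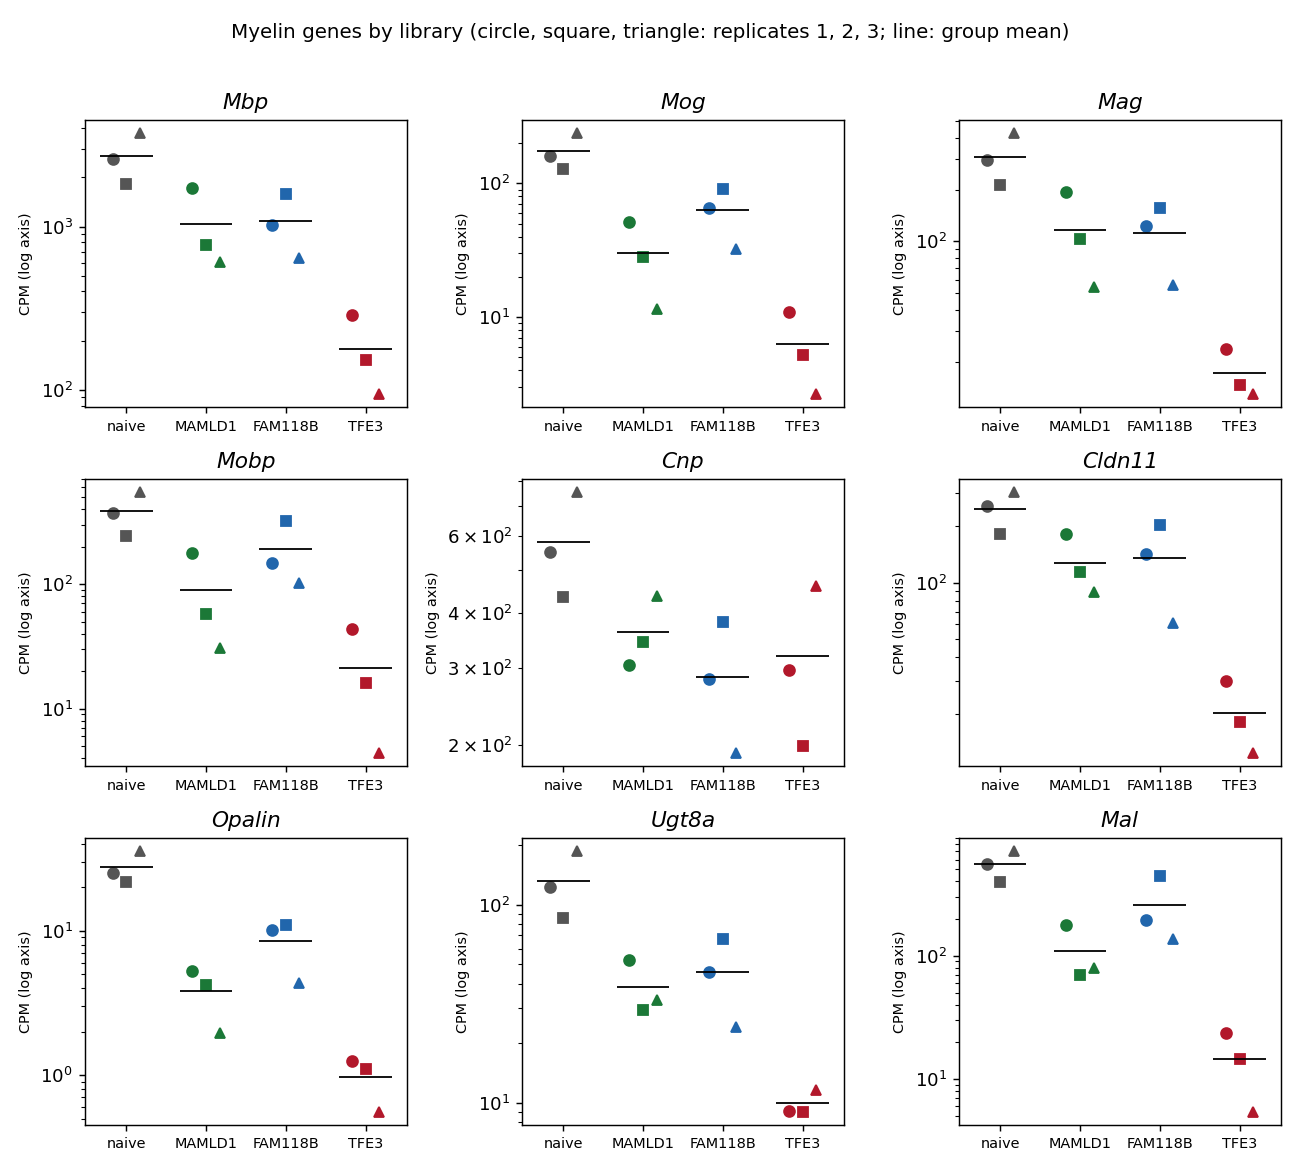
CPM of each of the 9 myelin genes in each of the 12 libraries, on log axes, with 1 point per library, shaped by replicate number, and a line at the group mean. In 8 panels the YAP1-TFE3 points sit below all naive points, and in the Cnp panel they overlap them.

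All 9 members were lower on average in each kind of tumour than in naive cortex, and the number that passed the test differed by fusion. A gene was called when edgeR's quasi-likelihood test gave an adjusted p under 0.05 over all genes tested. Against naive, 9 of 9 were called lower in YAP1-TFE3 tumours, where 30.0% of all genes were called lower. In YAP1-MAMLD1-dR3R1 tumours 6 of 9 were called lower, against 28.8% of all genes, and Mobp, Cnp and Cldn11 were not called. In YAP1-FAM118B tumours 3 of 9 were called lower, against 8.45% of all genes, namely Cnp, Opalin and Ugt8a. The median log2 fold change of the 9 was -4.18 in YAP1-TFE3, -1.79 in YAP1-MAMLD1-dR3R1 and -1.32 in YAP1-FAM118B, while the medians over all genes were 0.23, 0.06 and -0.05. By library, the tumours lay wholly below naive for 8 members in YAP1-TFE3, 8 in YAP1-MAMLD1-dR3R1 and 6 in YAP1-FAM118B, as did 33.2%, 34.9% and 27.1% of all genes. These contrasts share the same naive libraries and are not independent of each other. The YAP1-FAM118B count is the least settled of the 3, since it became 6 with DESeq2 and 6 when only the groups compared were fitted, and it was 0 without naive replicate 3. It was 1 without naive replicate 1, without YAP1-FAM118B replicate 1 or without YAP1-FAM118B replicate 3. Of all genes 29.7% were called there in either direction, 38.0% with DESeq2 and 42.6% with only the groups compared.

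**Figure D2:**
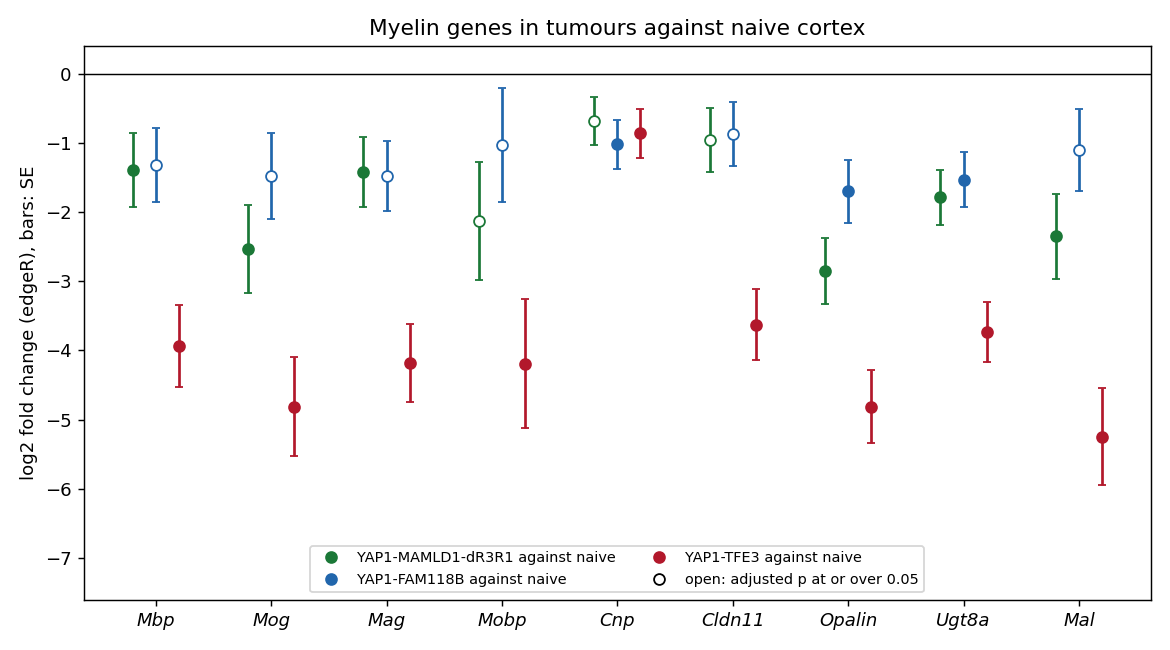
log2 fold change of each member in each tumour group against naive, with bars of 1 SE from the edgeR fit and open points where the adjusted p was at or over 0.05. The YAP1-TFE3 points lie between -3.63 and -5.25 except for Cnp, at -0.86, where the 3 fusions lie together.

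Mbp encodes myelin basic protein, which holds the cytoplasmic faces of compact myelin together. By mean CPM it was the most abundant member in every group except YAP1-TFE3, where Cnp was higher. The gene spans chromosome 18 from 82475146 to 82585637 on the plus strand of GRCm38. Naive libraries held 2583, 1826 and 3737 CPM in the order of their replicate numbers. YAP1-MAMLD1-dR3R1 tumours held 1715, 767 and 608 CPM, YAP1-FAM118B tumours 1020, 1589 and 645 CPM, and YAP1-TFE3 tumours 286, 153 and 93.9 CPM. Every tumour library was below every naive library, and the YAP1-TFE3 libraries were also below every other tumour. The fold change was 15.3-fold lower in YAP1-TFE3 (log2 -3.93 ± 0.59 SE, edgeR adjusted p = 0.000219) and 2.64-fold lower in YAP1-MAMLD1-dR3R1 (log2 -1.40 ± 0.53 SE, edgeR adjusted p = 0.0412). In YAP1-FAM118B the log2 difference of -1.32 ± 0.53 SE did not pass (edgeR adjusted p = 0.0870). The YAP1-MAMLD1-dR3R1 call was lost without naive replicate 1, naive replicate 3, YAP1-MAMLD1-dR3R1 replicate 2 or 3, or YAP1-FAM118B replicate 1, with an edgeR adjusted p of up to 0.131.

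Mobp encodes a small basic protein of the same cytoplasmic apposition, and it varied more than any other member between libraries in YAP1-TFE3 and in YAP1-MAMLD1-dR3R1 tumours. Its locus is chromosome 9, 120149707 to 120181484, plus strand. Naive libraries held 370, 245 and 551 CPM. The tumours held 179, 57.5 and 31.0 CPM with YAP1-MAMLD1-dR3R1, 149, 320.2 and 102 CPM with YAP1-FAM118B, and 43.6, 16.0 and 4.41 CPM with YAP1-TFE3. The highest YAP1-TFE3 library was 9.88 times the lowest, and the YAP1-FAM118B libraries overlapped naive through their replicate 2. Only the YAP1-TFE3 difference from naive passed, 18.2-fold lower (log2 -4.19 ± 0.94 SE, edgeR adjusted p = 0.00255). In YAP1-MAMLD1-dR3R1 the log2 difference of -2.13 ± 0.85 SE was just over the threshold (edgeR adjusted p = 0.0504), and it passed in 8 of 20 alternative fits.

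Mal encodes a proteolipid that carries membrane and lipid to the growing sheath, and it had the largest fold change of the 9 in YAP1-TFE3 tumours. It lies on chromosome 2 from 127633226 to 127656695, minus strand. The naive values were 553, 394 and 709 CPM. Tumours with YAP1-MAMLD1-dR3R1 held 176, 69.7 and 79.1 CPM, those with YAP1-FAM118B 194, 441 and 137 CPM, and those with YAP1-TFE3 23.7, 14.5 and 5.43 CPM. YAP1-FAM118B overlapped naive through its replicate 2, while the other fusions did not overlap naive. Mal was 38.0-fold lower in YAP1-TFE3 (log2 -5.25 ± 0.70 SE, edgeR adjusted p = 0.000104) and 5.09-fold lower in YAP1-MAMLD1-dR3R1 (log2 -2.35 ± 0.61 SE, edgeR adjusted p = 0.00737). The YAP1-FAM118B difference, log2 -1.10 ± 0.59 SE, did not pass (edgeR adjusted p = 0.183).

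Mog and Mag encode immunoglobulin-domain proteins of opposite surfaces of the sheath, Mog on its outermost lamella and Mag on the inner membrane that faces the axon. Mog lies on chromosome 17 from 37010743 to 37023398 and Mag on chromosome 7 from 30899176 to 30914873, both on the minus strand. Mog was at 161, 128 and 238 CPM in naive libraries. In tumours Mog was at 51.2, 28.2 and 11.5 CPM with YAP1-MAMLD1-dR3R1, 65.5, 91.2 and 32.4 CPM with YAP1-FAM118B, and 10.9, 5.19 and 2.65 CPM with YAP1-TFE3. No tumour library reached the lowest naive library, and the Mog level of YAP1-TFE3 replicate 1 was close to that of YAP1-MAMLD1-dR3R1 replicate 3. Mog was 28.1-fold lower in YAP1-TFE3 (log2 -4.81 ± 0.71 SE, edgeR adjusted p = 0.000207) and 5.79-fold lower in YAP1-MAMLD1-dR3R1 (log2 -2.53 ± 0.64 SE, edgeR adjusted p = 0.00628).

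Mag was at 296, 212 and 426 CPM in naive cortex. Its tumour values were 192, 104 and 54.1 CPM with YAP1-MAMLD1-dR3R1, 124, 156 and 55.8 CPM with YAP1-FAM118B, and 23.8, 14.6 and 13.0 CPM with YAP1-TFE3. Again all tumour libraries were below all naive libraries. Mag was 18.2-fold lower in YAP1-TFE3 (log2 -4.18 ± 0.57 SE, edgeR adjusted p = 0.000115) and 2.67-fold lower in YAP1-MAMLD1-dR3R1 (log2 -1.42 ± 0.51 SE, edgeR adjusted p = 0.0319). The latter call was lost without naive replicate 1, naive replicate 3 or YAP1-MAMLD1-dR3R1 replicate 2 or 3, with an edgeR adjusted p of up to 0.106. In YAP1-FAM118B neither gene passed: Mog differed by log2 -1.48 ± 0.62 SE and Mag by -1.48 ± 0.51 SE (edgeR adjusted p = 0.0970 and 0.0510).

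Cldn11 encodes claudin 11, which forms the tight junctions that seal the myelin lamellae. Its locus is chromosome 3, 31149920 to 31164324, plus strand. Naive cortex had 257, 182 and 305 CPM. The tumours had 181, 114 and 89.5 CPM with YAP1-MAMLD1-dR3R1, 143, 203 and 60.7 CPM with YAP1-FAM118B, and 30.0, 17.9 and 12.3 CPM with YAP1-TFE3. The highest YAP1-MAMLD1-dR3R1 library was next to the lowest naive one, and YAP1-FAM118B overlapped naive. Cldn11 was called in YAP1-TFE3, 12.4-fold lower (log2 -3.63 ± 0.51 SE, edgeR adjusted p = 0.000146). Against naive the other fusions differed by log2 -0.95 ± 0.46 SE with YAP1-MAMLD1-dR3R1 and -0.87 ± 0.46 SE with YAP1-FAM118B, and edgeR adjusted p was 0.0952 and 0.179. When only the groups compared were fitted, the YAP1-MAMLD1-dR3R1 difference passed (edgeR adjusted p = 0.0379).

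Opalin is a transmembrane glycoprotein made by oligodendrocytes of the central but not the peripheral nervous system, and it was the least abundant member. It lies on chromosome 19 from 41061710 to 41077113, minus strand. Naive libraries held 25.1, 21.6 and 35.7 CPM. YAP1-MAMLD1-dR3R1 tumours held 5.24, 4.21 and 1.95 CPM, YAP1-FAM118B tumours 10.1, 11 and 4.34 CPM, and YAP1-TFE3 tumours 1.25, 1.11 and 0.557 CPM, where the raw counts were 26, 25 and 12. Each tumour group lay wholly below naive. Opalin was called in all 3 fusions: 28.1-fold lower in YAP1-TFE3 (log2 -4.81 ± 0.53 SE, edgeR adjusted p = 3.17e-05), 7.22-fold lower in YAP1-MAMLD1-dR3R1 (log2 -2.85 ± 0.48 SE, edgeR adjusted p = 0.000586) and 3.24-fold lower in YAP1-FAM118B (log2 -1.70 ± 0.46 SE, edgeR adjusted p = 0.0190). The YAP1-FAM118B call was lost without naive replicate 1, naive replicate 3 or YAP1-FAM118B replicate 3, with an edgeR adjusted p of up to 0.0677.

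Ugt8a encodes the ceramide galactosyltransferase that makes galactosylceramide, the chief glycolipid of myelin. The gene is on chromosome 3 from 125865271 to 125938619, minus strand. Naive libraries held 123.1, 86.0 and 188 CPM. YAP1-MAMLD1-dR3R1 tumours held 52.4, 29.3 and 33.2 CPM, YAP1-FAM118B tumours 45.9, 67.0 and 24.2 CPM, and YAP1-TFE3 tumours 9.12, 9.0 and 11.7 CPM. Ugt8a was the other member called in every fusion with groups that did not overlap naive, and its YAP1-TFE3 libraries were the closest together of any member, within 1.29 times. The fold was 13.3-fold lower in YAP1-TFE3 (log2 -3.74 ± 0.43 SE, edgeR adjusted p = 4.24e-05), 3.45-fold lower in YAP1-MAMLD1-dR3R1 (log2 -1.79 ± 0.40 SE, edgeR adjusted p = 0.00308) and 2.89-fold lower in YAP1-FAM118B (log2 -1.53 ± 0.39 SE, edgeR adjusted p = 0.0157). Without naive replicate 3 or YAP1-FAM118B replicate 1 the YAP1-FAM118B call was lost, with an edgeR adjusted p of up to 0.0610.

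Cnp encodes a cyclic nucleotide phosphodiesterase of the non-compact cytoplasmic channels of myelin, and it was the exception among the 9. Its annotated span is chromosome 11, 100574904 to 100591729, plus strand. Naive cortex had 552, 435 and 755 CPM. The tumours had 305, 343 and 437 CPM with YAP1-MAMLD1-dR3R1, 284, 381 and 192 CPM with YAP1-FAM118B, and 297, 199 and 459.9 CPM with YAP1-TFE3. Only the YAP1-FAM118B libraries were all below naive. The fold was 1.82-fold lower in YAP1-TFE3 (log2 -0.86 ± 0.35 SE, edgeR adjusted p = 0.0453) and 2.03-fold lower in YAP1-FAM118B (log2 -1.02 ± 0.35 SE, edgeR adjusted p = 0.0496), and in YAP1-MAMLD1-dR3R1 the log2 difference of -0.68 ± 0.35 SE did not pass (edgeR adjusted p = 0.108). Both calls were close to the threshold. The YAP1-FAM118B call was lost in 11 of 20 alternative fits and the YAP1-TFE3 call in 4 of 20, with edgeR adjusted p of up to 0.173 and 0.161. The YAP1-TFE3 call was lost with the replicate number as a block, and without naive replicate 3, YAP1-MAMLD1-dR3R1 replicate 1 or YAP1-FAM118B replicate 1.

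The Cnp span shares 8912 bases with Dnajc7, a cochaperone gene on the opposite strand, through a non-coding Cnp transcript. The coding transcripts of the pair are 1089 bases apart. Whether the counting used strand is not given in the sources used here. Dnajc7 was at 146 to 160 CPM in naive libraries and 180 to 237 CPM in YAP1-TFE3 tumours, and its part in the Cnp values was not tested.

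Between fusions, the YAP1-TFE3 tumours were the lowest. Against YAP1-FAM118B, 8 of 9 members were called lower, with only Cnp not called, where 23.7% of all genes were called lower. Without the pair of libraries holding Xist and Y-linked counts Mobp also missed the threshold there (edgeR adjusted p = 0.0610), which left 7. Mal had the largest difference, 17.7-fold lower (log2 -4.15 ± 0.66 SE, edgeR adjusted p = 0.000750), and the median of the 9 was 6.75-fold. All YAP1-TFE3 libraries were below all YAP1-FAM118B libraries for those 8 members and for 26.9% of all genes. Against YAP1-MAMLD1-dR3R1, 7 of 9 were called lower in YAP1-TFE3, with Mobp and Cnp not called, where 16.9% of all genes were called lower. The same 7 did not overlap between these groups, as 21.1% of all genes did not in that direction. Mal was 7.45-fold lower there (log2 -2.90 ± 0.63 SE, edgeR adjusted p = 0.00516) and Mag 6.82-fold lower (log2 -2.77 ± 0.53 SE, edgeR adjusted p = 0.00276). The Mog difference of log2 -2.28 ± 0.64 SE (edgeR adjusted p = 0.0186) missed the threshold without YAP1-MAMLD1-dR3R1 replicate 1 and when only the groups compared were fitted, with an edgeR adjusted p of up to 0.0683.

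YAP1-FAM118B and YAP1-MAMLD1-dR3R1 tumours were not told apart by any member in edgeR's quasi-likelihood test, where 26.2% of all genes were called in either direction. All 9 members overlapped between them, while 25.0% of all genes lay wholly lower and 23.7% wholly higher with YAP1-FAM118B, and 1 member had an unadjusted p under 0.05. The log2 differences ran from -0.34 ± 0.34 SE for Cnp to 1.25 ± 0.59 SE for Mal, with a median of 0.25. Opalin came nearest, 1.15 ± 0.45 SE higher with YAP1-FAM118B on the log2 scale (edgeR adjusted p = 0.0825), and it passed with DESeq2 (adjusted p = 0.0460) and without YAP1-FAM118B replicate 3 (edgeR adjusted p = 0.0443). A missed threshold does not show that the groups are alike.

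The make-up of the myelin RNA was read within each library as the share of a member in the counts of all 9, which does not depend on how libraries were scaled. In naive cortex Mbp took 52.7% ± 1.05 (SD, n = 3), Cnp 11.5% ± 0.762, Mal 10.9% ± 0.575 and Mobp 7.47% ± 0.495, with an SD of at most 1.05 percentage points for any member. In YAP1-TFE3 tumours Cnp took 54.5% ± 19.0, from 41.0 to 76.2%, and Mbp 30.2% ± 12.8. The share of Cnp there was above every naive library and the shares of the other 8 members were below, as shares of 1 sum are tied to each other. With Cnp left out of the sum, a reading added after the data were seen, Mog, Opalin and Mal lay below every naive library in YAP1-TFE3 tumours, Mbp and Cldn11 lay above, and Mag, Mobp and Ugt8a overlapped naive. Mal then took 5.19% ± 1.27 against 12.3% ± 0.719 in naive, and Cldn11 7.77% ± 0.775 against 5.56% ± 0.546. With all 9 in the sum, the ratio of Cnp to the other members was 3.26 higher in YAP1-TFE3 than in naive on the log2 scale, and the ratio of Mal to the others was lower by the most, at -2.47.

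In YAP1-FAM118B tumours the shares lay near those of cortex. Mbp took 50.1% ± 1.35, Cnp 13.7% ± 1.83 and Mal 11.3% ± 2.02 there. In YAP1-MAMLD1-dR3R1 tumours Mal took 5.55% ± 0.839, Mog 1.503% ± 0.561 against 3.44% ± 0.167 in naive, and Cldn11 6.83% ± 0.597 against 4.92% ± 0.458. The shares of Mog, Mobp, Opalin and Mal lay below every naive library with this fusion, and that of Cldn11 above. With YAP1-FAM118B the shares of Mbp, Mog, Opalin and Ugt8a lay below. Without Cnp in the sum only Opalin and Ugt8a lay below with YAP1-FAM118B, and with YAP1-MAMLD1-dR3R1 Mbp joined Cldn11 above. For groups that do not overlap, the exact two-sided permutation test gave p = 0.10, the smallest that 3 libraries against 3 allow, and 0.15 after adjustment over 27 tests, so no share could pass 0.05.

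**Figure D3:**
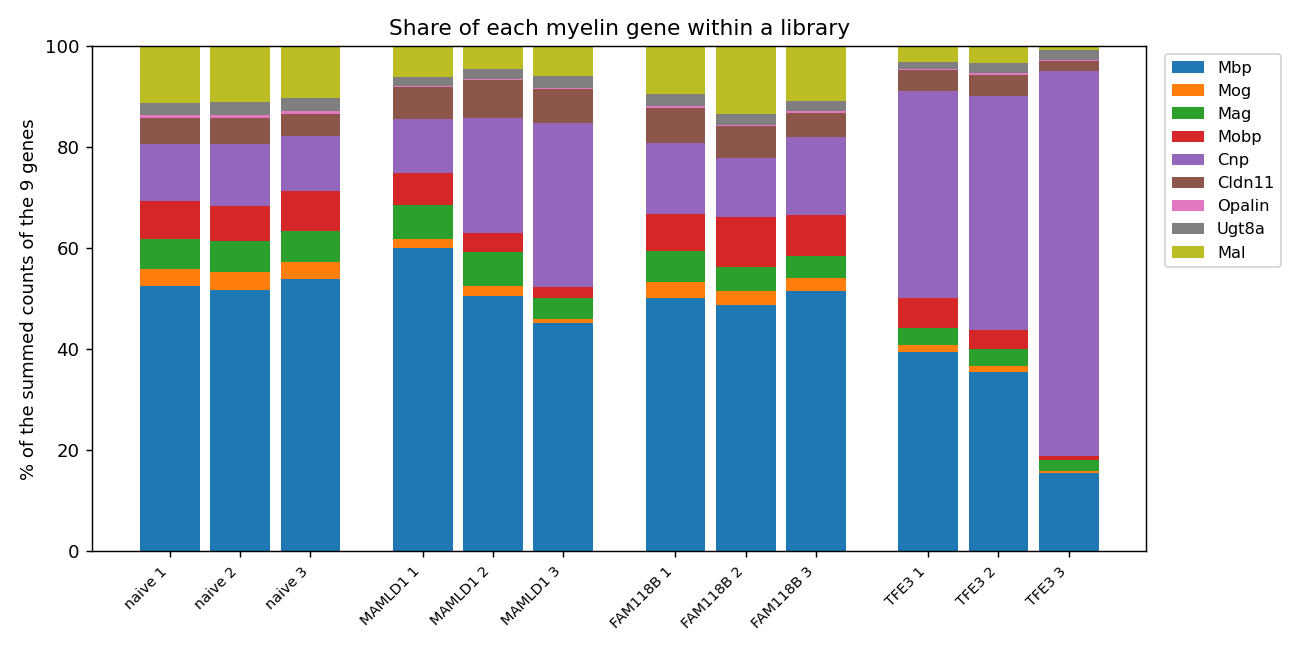
Share of each member in the summed counts of the 9 myelin genes, in percent, as stacked bars, 1 per library. Cnp fills 41.0 to 76.2% of the YAP1-TFE3 bars and 10.9 to 12.3% of the naive bars.

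Divided by the length of the coding-transcript exons, the order of the levels changed between groups. In naive cortex it ran from Mbp at 334 ± 118 CPM per kb (SD, n = 3) through Cnp at 246 ± 68.6, Mal at 199 ± 56.7, Cldn11 at 133 ± 33.3, Mag at 128 ± 44.1, Mog at 103 ± 33.2 and Mobp at 82.9 ± 32.8 to Ugt8a at 31.8 ± 12.3 and Opalin at 14.9 ± 3.98. The ranges of neighbours overlapped from Mbp down to Mobp, while Ugt8a lay below Mobp and Opalin below Ugt8a in every naive library. In YAP1-TFE3 tumours Cnp came first at 135 ± 55.8 CPM per kb and Mbp next at 21.9 ± 12.1. Cnp also came first in YAP1-MAMLD1-dR3R1 tumours, at 153 ± 28.7 against 127 ± 73.7 for Mbp, a difference smaller than the spread. Opalin was last in all 4 groups.

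Within a group most members rose and fell together from library to library, and Cnp departed from most others in YAP1-MAMLD1-dR3R1 and YAP1-TFE3. Naive replicate 3 was the highest and naive replicate 2 the lowest of its group for all 9 members, and YAP1-FAM118B replicates 2 and 3 were the highest and lowest of theirs for all 9. YAP1-MAMLD1-dR3R1 replicate 1 was highest for 8 members, while Cnp was highest in replicate 3 and lowest in replicate 1. YAP1-TFE3 replicate 1 was highest for 7 members, with Cnp and Ugt8a highest in replicate 3. Over the 12 libraries, Pearson's r of log2 CPM was 0.876 to 0.989 for the 28 pairs of members without Cnp and 0.343 to 0.664 for the 8 pairs with it. After each group's mean was taken out the ranges were 0.449 to 0.969 and -0.119 to 0.659. These values describe libraries that share groups and depth, and they carry no test.

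Oligodendrocyte genes outside the 9 were read from lists written from general knowledge. Of 24 other myelin and mature oligodendrocyte genes, 17 were called lower and 1 higher in YAP1-TFE3 against naive, 9 lower and 4 higher in YAP1-MAMLD1-dR3R1, and 8 lower and 1 higher in YAP1-FAM118B. Their median log2 fold changes were -2.85, -1.06 and -1.30. Over all genes 40.6%, 34.4% and 21.3% were called higher in these comparisons, and the shares called lower are given above. The YAP1-FAM118B count of 8 lower became 17 when only the groups compared were fitted. That fit called 42.6% of all genes in either direction, against 29.7% with all libraries. The count was 2 without naive replicate 3 or YAP1-FAM118B replicate 1 or 3, and 3 without naive replicate 1. It was 5 without YAP1-MAMLD1-dR3R1 replicate 2 or YAP1-TFE3 replicate 2. Those lower in every fusion included Pllp, Tspan2, a tetraspanin of oligodendrocytes, and Tmem88b. In YAP1-FAM118B the calls of Tspan2 and Tmem88b were lost without naive replicate 3, YAP1-FAM118B replicate 1 or YAP1-FAM118B replicate 3, and that of Tspan2 also without naive replicate 1. Tspan2 stood at 249.6, 175 and 322 CPM in naive cortex and 15.6, 14.8 and 8.64 CPM in YAP1-TFE3 tumours, with a log2 difference of -4.26 ± 0.38 SE (edgeR adjusted p = 9.95e-06). In YAP1-MAMLD1-dR3R1 Tspan2 differed by -1.87 ± 0.35 SE and in YAP1-FAM118B by -1.26 ± 0.34 SE (edgeR adjusted p = 0.00107 and 0.0191). Pllp, a plasmolipin of the myelin membrane, was at 75.3, 72.0 and 96.2 CPM in naive cortex and 7.72, 10.95 and 9.80 CPM in YAP1-TFE3 tumours.

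Some genes of that list went the other way. Trf encodes transferrin, the iron carrier that oligodendrocytes make. It rose in YAP1-MAMLD1-dR3R1, from 284 to 689 CPM in naive to 1237 to 2226 CPM, by log2 1.99 ± 0.43 SE (edgeR adjusted p = 0.00258). Adamts4, an extracellular metalloprotease of mature oligodendrocytes, rose in YAP1-FAM118B by log2 1.55 ± 0.31 SE (edgeR adjusted p = 0.00462) and fell in YAP1-TFE3 by 0.77 ± 0.31 SE (edgeR adjusted p = 0.0436), a call that 7 of 15 alternative fits did not make.

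Of 8 genes that make myelin lipids, 2 were called lower and 4 higher in YAP1-TFE3, and 2 lower and 2 higher in each other fusion. In YAP1-TFE3 and YAP1-MAMLD1-dR3R1 these shares lie near those of all genes. The 2 lower in YAP1-FAM118B became 0 without any 1 naive library, without YAP1-MAMLD1-dR3R1 replicate 2 or without YAP1-FAM118B replicate 1 or 3, and 1 without YAP1-MAMLD1-dR3R1 replicate 3, YAP1-FAM118B replicate 2 or YAP1-TFE3 replicate 1 or 3. Fa2h, which hydroxylates the fatty acids of myelin galactolipids, was lower by log2 -4.65 ± 0.64 SE in YAP1-TFE3 (edgeR adjusted p = 0.000132) and -2.38 ± 0.57 SE in YAP1-MAMLD1-dR3R1 (edgeR adjusted p = 0.00495), and in YAP1-FAM118B its difference of -1.17 ± 0.55 SE did not pass (edgeR adjusted p = 0.135). Cers2 and Elovl1, which make very-long-chain ceramides and fatty acids in many tissues, were higher in every fusion. Elovl1 was higher by log2 2.78 ± 0.25 SE in YAP1-TFE3 (edgeR adjusted p = 9.94e-06), with 95.1 to 141 CPM against 15.5 to 21.8 in naive.

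The regulators of the lineage went in both directions. Sox10 was higher than naive in YAP1-MAMLD1-dR3R1 by log2 2.04 ± 0.47 SE (edgeR adjusted p = 0.00371) and in YAP1-FAM118B by 1.57 ± 0.46 SE (edgeR adjusted p = 0.0277), and lower in YAP1-TFE3 by -1.25 ± 0.46 SE (edgeR adjusted p = 0.0321). Its levels were 42.5, 40.1 and 56.9 CPM in naive, 69.0, 225 and 278 CPM in YAP1-MAMLD1-dR3R1, 129, 116 and 171 CPM in YAP1-FAM118B, and 11.3, 24.8 and 22.7 CPM in YAP1-TFE3. No tumour library of Sox10 overlapped naive. The library with the least Sox10 among YAP1-MAMLD1-dR3R1 tumours, replicate 1, was the one with the most of 8 members. The YAP1-FAM118B call was lost without any 1 naive library or without YAP1-FAM118B replicate 1 or 3, and the YAP1-TFE3 call without naive replicate 3 or YAP1-TFE3 replicate 1, with edgeR adjusted p of up to 0.0938 and 0.0921. Against YAP1-MAMLD1-dR3R1 and YAP1-FAM118B, Sox10 was lower in YAP1-TFE3 by log2 -3.28 ± 0.49 SE and -2.82 ± 0.48 SE (edgeR adjusted p = 0.000695 and 0.00108).

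Myrf, which SOX10 works with to drive myelin genes, was called lower only in YAP1-TFE3, by log2 -2.69 ± 0.44 SE (edgeR adjusted p = 0.000404), while DESeq2 also called it in YAP1-FAM118B (adjusted p = 0.0446). It was lower there than in each other fusion as well, by -1.87 ± 0.43 SE against YAP1-MAMLD1-dR3R1 and -1.68 ± 0.43 SE against YAP1-FAM118B (edgeR adjusted p = 0.00712 and 0.00857). Sox8, a close relative of Sox10, was lower in every fusion, by log2 -2.37 in YAP1-TFE3, -1.46 in YAP1-MAMLD1-dR3R1 and -1.40 in YAP1-FAM118B. Over the 10 transcription factors, 1 was called lower and 1 higher in YAP1-MAMLD1-dR3R1, 2 lower and 1 higher in YAP1-FAM118B, and 4 lower in YAP1-TFE3. The last became 2 without naive replicate 3, and the counts in the other fusions moved by 1 gene when some single libraries were left out. Among all genes 28.8%, 8.45% and 30.0% were called lower in these fusions, and 34.4%, 21.3% and 40.6% higher. The 4 lower in YAP1-TFE3 lie near that share, and the YAP1-MAMLD1-dR3R1 counts lie below theirs. Tcf7l2, a factor of newly formed oligodendrocytes that thalamic neurons also make, was at 78.2 CPM in naive replicate 3 and at 4.19 and 6.62 CPM in the other naive libraries. Its log2 differences from naive were -1.59, -2.02 and -1.74 and became 0.87, 0.44 and 0.72 without that library. That library also had the most of every member.

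Genes of earlier stages were set beside these. Of 7 genes of committed precursors, the stage between division and myelination, 5 were called lower in YAP1-TFE3, 3 in YAP1-MAMLD1-dR3R1 and 3 in YAP1-FAM118B, and 1, the calcium channel gene Itpr2, higher in YAP1-MAMLD1-dR3R1. The shares of all genes called lower were 30.0%, 28.8% and 8.45% in that order, and 34.4% were called higher in YAP1-MAMLD1-dR3R1. The YAP1-FAM118B count of 3 became 5 with DESeq2 and 1 without naive replicate 1 or 3 or YAP1-FAM118B replicate 1 or 3. DESeq2 called 38.0% of all genes there in either direction, against 29.7% with edgeR. Neu4, a sialidase, was lower in every fusion, a call that in YAP1-FAM118B was lost without any 1 naive library or YAP1-FAM118B replicate 1 or 3, and in YAP1-MAMLD1-dR3R1 without naive replicate 3 or YAP1-MAMLD1-dR3R1 replicate 1 or 3. Gpr17, a receptor that holds precursors before maturation, was lower by log2 -2.06 ± 0.47 SE in YAP1-MAMLD1-dR3R1 and -1.95 ± 0.46 SE in YAP1-TFE3 (edgeR adjusted p = 0.00337 and 0.00361).

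Of 8 genes of dividing precursors, 6 were called higher in YAP1-MAMLD1-dR3R1, 1 higher in YAP1-FAM118B, and 2 higher and 3 lower in YAP1-TFE3. Among all genes 34.4%, 21.3% and 40.6% were called higher in these fusions, and 30.0% lower in YAP1-TFE3. The YAP1-FAM118B and YAP1-TFE3 counts are near or below these shares. The count of 6 became 2 without naive replicate 1, naive replicate 2 or YAP1-MAMLD1-dR3R1 replicate 3, 3 without YAP1-MAMLD1-dR3R1 replicate 2, and 1 without the pair of libraries holding Xist and Y-linked counts. Without that pair 54.0% of all genes were called in YAP1-MAMLD1-dR3R1 in either direction, against 63.2% with all libraries. The 3 lower in YAP1-TFE3 became 5 without YAP1-MAMLD1-dR3R1 replicate 3. Cspg4, the NG2 proteoglycan, which pericytes also carry, was higher in every fusion, by log2 2.59 ± 0.35 SE in YAP1-MAMLD1-dR3R1, 2.23 ± 0.34 SE in YAP1-FAM118B and 1.02 ± 0.33 SE in YAP1-TFE3 (edgeR adjusted p = 0.000152, 0.000999 and 0.0184). The YAP1-TFE3 call of Cspg4 was lost without any 1 YAP1-TFE3 library, without YAP1-MAMLD1-dR3R1 replicate 2 or 3, or without naive replicate 1. Tnr, an extracellular matrix glycoprotein of the lineage, was called lower only in YAP1-TFE3, by -2.46 ± 0.41 SE (edgeR adjusted p = 0.000455). DESeq2 called Tnr lower in all 3 fusions.

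**Figure D4:**
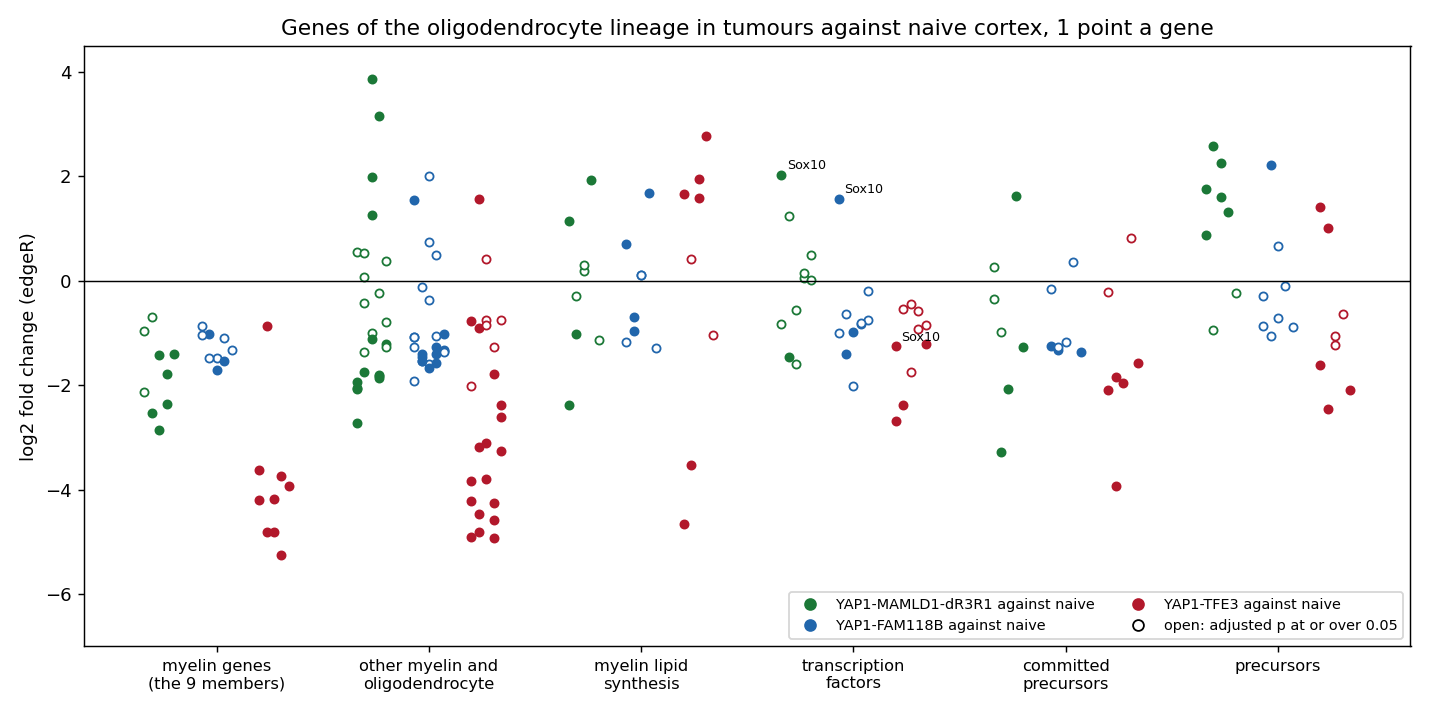
log2 fold change against naive of the members and of the genes of each oligodendrocyte lineage list, 1 point per gene, in blocks by list and filled where the edgeR adjusted p was under 0.05. Sox10 lies above 0 with YAP1-MAMLD1-dR3R1 and YAP1-FAM118B and below 0 with YAP1-TFE3.

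The genes most like the members were found by Pearson's r between log2 CPM and the mean log2 CPM of the members over the 12 libraries, among 12517 genes with a mean of at least 5 CPM. The 10 nearest included, from the highest r to the lowest, Tmem88b with 0.991, Tspan2, Fa2h, Frmd5, Ermn, Svip, Stk39 and Grb14, the last with 0.976. After the group means were taken out, the 5 nearest included Tmem88b with 0.980, Ermn, and Pnpla6 with 0.943. Of the first 10, Frmd5, Svip, Stk39 and Grb14 were in none of the lists. Cnp itself had r of 0.480 with the mean of the other members.

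Markers of other cells moved across the same groups. The 12 neuron markers summed to 560 to 1519 CPM in YAP1-MAMLD1-dR3R1, 4440 to 6660 CPM in YAP1-FAM118B and 107 to 1125 CPM in YAP1-TFE3, all below naive, with 10, 1 and 11 of the 12 called lower. Among all genes 28.8%, 8.45% and 30.0% were called lower in these fusions, so the 1 in YAP1-FAM118B is near its share. The 10 became 4 without YAP1-MAMLD1-dR3R1 replicate 2 or 3, and the 1 became 7 when only the groups compared were fitted. That last fit called 42.6% of all genes in YAP1-FAM118B in either direction, against 29.7% with all libraries. The 8 microglia and macrophage markers summed to 198 to 257 CPM in naive and to 5543 to 8692, 1662 to 2045 and 1344 to 4192 CPM in the fusions in that order, with 8, 7 and 7 of the 8 called higher. The 8 fibroblast and meninges markers summed to 5747 to 10112, 4184 to 16438 and 968 to 2441 CPM in the tumours. Of these markers 4 were called higher in each fusion, and 1 was called lower in YAP1-MAMLD1-dR3R1 and in YAP1-TFE3. The shares of all genes called higher were 34.4%, 21.3% and 40.6%. The 8 astrocyte markers summed to 4298 to 5391 CPM in naive and to 4189 to 6880, 2298 to 4642 and 1040 to 3089 CPM in the fusions. The 6 T cell markers summed to 8.17 to 12.4 CPM in naive and to 21.6 to 110, 10.2 to 12.1 and 20.6 to 43.0 CPM in the fusions. No neuron, microglia, fibroblast or astrocyte marker was at 0 in all libraries of a group. Their part in the lower myelin values was not tested.

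Set against neuron RNA, the members were not lower in every tumour. The ratio of their summed CPM to that of the neuron markers was 0.430, 0.356 and 0.822 in naive libraries. It was 1.88, 1.25 and 2.40 with YAP1-MAMLD1-dR3R1, all above naive, and 0.383, 0.489 and 0.282 with YAP1-FAM118B, which overlapped naive. With YAP1-TFE3 the ratio was 6.75, 0.383 and 4.395. Neuron markers were at 1125 CPM in YAP1-TFE3 replicate 2 and at 107 and 137 CPM in replicates 1 and 3. The myelin sums of replicates 1, 2 and 3 differed less, at 726, 430 and 604 CPM. Cnp made up 41.0, 46.3 and 76.2% of the member counts in these libraries, so the ratio of replicate 3 rests mostly on Cnp.

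**Figure D5:**
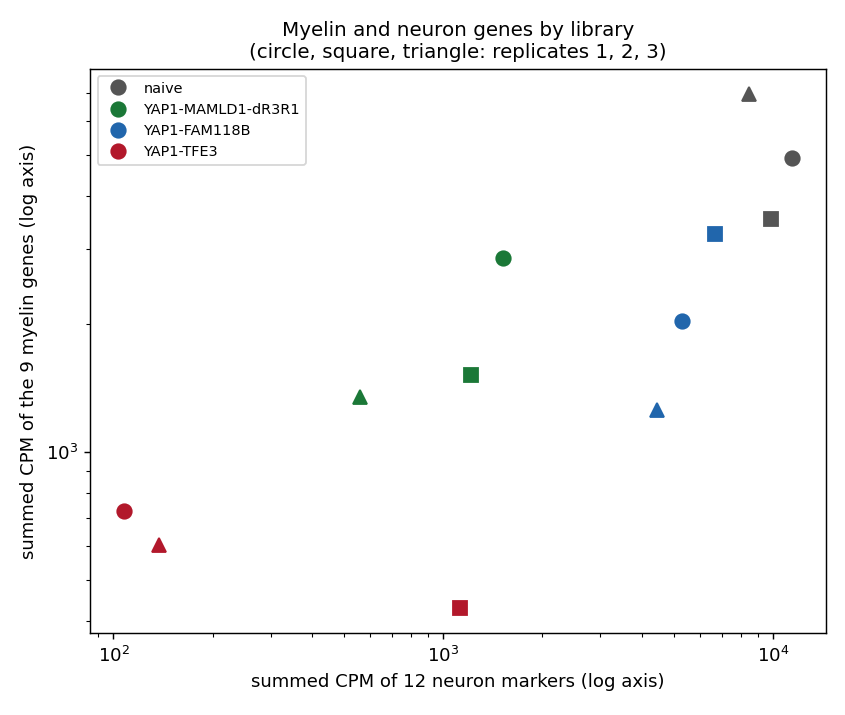
Summed CPM of the 9 myelin genes against summed CPM of the 12 neuron markers, 1 point per library on log axes. YAP1-TFE3 points lie lowest on the myelin axis, and YAP1-FAM118B points lie nearest to naive on the neuron axis.

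Several members are also made by Schwann cells, the myelinating cells of peripheral nerve. Of 8 Schwann cell markers, 3 were called higher and 2 lower in YAP1-TFE3, 6 higher in YAP1-MAMLD1-dR3R1 and 4 higher in YAP1-FAM118B. Among all genes 40.6% were called higher and 30.0% lower in YAP1-TFE3, so its counts are near the background, and 34.4% and 21.3% were called higher in the other fusions. Their sum was 23.1 to 45.6 CPM in naive, 68.2 to 237 CPM in YAP1-MAMLD1-dR3R1, 50.5 to 100.03 CPM in YAP1-FAM118B and 16.2 to 27.2 CPM in YAP1-TFE3. Foxd3, a transcription factor of the Schwann lineage, was at 0 in all 3 naive libraries, as was the T cell receptor component Cd3d. Egr2, a regulator of peripheral myelin genes, was called lower in YAP1-TFE3 (log2 -2.85 ± 0.58 SE, edgeR adjusted p = 0.00144).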

How the data were processed

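The authors deposited whole-number read counts for each gene symbol, made with HTSeq on build mm10, per the submitters' processing notes. The sources used here do not give aligner, annotation, strand setting or filters. Groups and replicate numbers came from the labels. edgeR 4.0.16 (R 4.3.3, limma 3.58.1) was run on all 12 libraries: filterByExpr with a minimum count of 10 kept 16364 genes, libraries were scaled by TMM, and 6 contrasts were tested by quasi-likelihood with Benjamini-Hochberg adjustment at 0.05 over all genes. The SE is the log2 fold change over the square root of F. CPM used TMM-scaled library sizes, and log2 CPM a prior count of 2. Within-library ratios of members used a pseudocount of 0.5 and exact permutation tests.

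Positions and exon lengths came from GENCODE (GRCm38), where 23376 of 24421 symbols matched, and promoters from RefSeq (GRCm38.p6). Members and lists were chosen with earlier results of these data known. Named genes were all 9 members, up to 4 per list with the smallest edgeR adjusted p, taking the largest of the 3 contrasts with naive, up to 2 going against their list, and the 10 and 5 genes most like the members. A few others are named as list members, and some list genes are not reported here. Alternatives were DESeq2 1.42.0, RLE factors, library size only, no filter, 1 CPM in 3 libraries, a block for the replicate number, a fit of only the groups compared, each library left out in turn, and both libraries with Xist and Y-linked counts left out. Taking shares without Cnp in the sum was chosen once the data had been seen. The tests were first run on simulated data.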

Additional observations from a re-analysis of the deposited data

How the results depend on the processing

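The 9 members had 1080 alternative values over 6 comparisons, of which 994 kept direction and side of the threshold, 32 lost the call, 28 gained it and 26, all of differences that were never called, changed sign. For the other named genes the figures were 1088 of 1212, 82, 37 and 5. Scaling moved the median log2 fold change of all genes in YAP1-TFE3 against naive from 0.23 with TMM to 0.07 with DESeq2 and 0.03 with library size only. The count of members called in YAP1-FAM118B against naive, 3, was 6 with DESeq2 and with only the groups compared, and 0 to 4 when each library was left out. Between YAP1-FAM118B and YAP1-MAMLD1-dR3R1 it was 1 with DESeq2 and 0 to 1 when each library was left out. DESeq2 called 36.7% of all genes in that comparison in either direction, and edgeR 26.2%. The number called lower in all 3 fusions, 5 for other myelin genes, was 8 with DESeq2 and 1 to 7 when each library was left out, with 1 without naive replicate 3, YAP1-FAM118B replicate 1 or YAP1-FAM118B replicate 3. For committed precursor genes it was 1, then 4 with DESeq2 and 0 to 2 when each library was left out. For precursor genes, 0, it was 1 with DESeq2 and 0 to 1, and for lipid genes, 0, it was 0 to 1. The share of all genes called lower in all 3 fusions was not computed, so these counts have no background beside them. The other member counts ranged, over alternatives other than single libraries left out, within 1.5 times the reported values. The cause of these moves was not tested.

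Cnp in YAP1-TFE3 against YAP1-FAM118B, 0.16, became -0.0737 with library size only, -0.0445 with no filter and -0.11 with the 1 CPM filter, and ran from -0.42 to 0.42 when each library was left out. In YAP1-FAM118B against YAP1-MAMLD1-dR3R1, Mag at -0.06 became 0.0076 with the 1 CPM filter and 0.014 with the replicate block, and ran from -0.38 to 0.50. There, without the pair of libraries with Xist and Y-linked counts, Mbp became -0.31, Cldn11 -0.33 and Ugt8a -0.13, and single libraries left out gave -0.31 to 0.66, -0.33 to 0.43 and -0.13 to 0.56. Without naive replicate 3 Tcf7l2 changed sign in each fusion, with ranges of -2.15 to 0.87, -2.53 to 0.44 and -2.46 to 0.72. Sgms1 in YAP1-FAM118B ran from -0.0228 to 0.20 and Itpr2 in YAP1-TFE3 from -0.0424 to 0.86. With Cnp left out of the sum, an alternative chosen after seeing the data, the log2 ratio of a member to the others differed from naive in YAP1-TFE3 by 0.41 for Mbp, -0.84 for Mog, -0.0011 for Mag, 0.52 for Cldn11, -0.66 for Opalin, 0.53 for Ugt8a and -1.38 for Mal, and in YAP1-MAMLD1-dR3R1 by 0.43 for Mbp, 0.72 for Cldn11, -0.11 for Ugt8a and -0.87 for Mal.

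Over 18 pairs of libraries with the same replicate number the correlation of deviations from the group mean was -0.111 to 0.324 and passed 0.1 in 4. Pairs with different numbers were not computed, so these values cannot decide whether the numbers pair the libraries. With the replicate block 8 members were called against naive in YAP1-TFE3, 7 in YAP1-MAMLD1-dR3R1 and 3 in YAP1-FAM118B, where Cnp lost its calls in YAP1-FAM118B and YAP1-TFE3 (edgeR adjusted p = 0.0794 and 0.0518) and Mobp in YAP1-MAMLD1-dR3R1 and Mag in YAP1-FAM118B gained one (edgeR adjusted p = 0.0223 and 0.0408). With the block 69.2% of all genes were called against naive in YAP1-TFE3, 62.2% in YAP1-MAMLD1-dR3R1 and 28.8% in YAP1-FAM118B, in either direction. Opalin had the fewest counts, 12 to 26 in YAP1-TFE3 libraries.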
